A study of Mus musculus with 30 samples.

Results

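Cyp1a1 knockout (KO) preputial glands after 4 to 16 weeks of oral benzo[a]pyrene (BaP) were compared with Cyp1a1 KO glands at week 0, before any BaP. The comparison used 9 of the 30 arrays of the study, chosen by genotype and week in the array titles: 7 KO arrays on BaP (2 each at weeks 4, 8 and 16 and 1 at week 12) and 2 KO arrays at week 0. The other week 12 array, KO week 12 replicate 2, was left out because the SD of all its log2 values, 1.35, was under 1.5, while the 9 arrays used had SDs of 1.76 to 1.97. The study followed gene expression during squamous cell carcinoma formation in the duct of the gland in 3 genotypes, Cyp1a1 KO, Cyp1a1/1b1 double knockout (DKO) and wild type (WT), with 10 arrays per genotype. All mice were male and on the B6 background, and all 9 glands came from mice without Cyp1a1. Per the labels' protocols the mice received BaP with food soaked in corn oil from 6 weeks of age, at about 12.5 mg/kg/day, and 2 mice per group were used for RNA. Mice on BaP were older than mice at week 0 by the weeks of feeding, so exposure and age cannot be told apart.

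BaP is a combustion product that binds the aryl hydrocarbon receptor (AhR), a transcription factor of the cytoplasm that moves to the nucleus, pairs with ARNT and binds DNA elements with a GCGTG core. Its best known targets are the cytochrome P450 genes Cyp1a1, Cyp1a2 and Cyp1b1, whose enzymes oxidise BaP both to reactive diol epoxides and to products that are conjugated and excreted. Ahrr, a repressor, and Tiparp, an ADP-ribosyltransferase, are AhR targets that feed back on the receptor. The preputial gland is a modified sebaceous gland of male mice whose lipid-filled cells open into a duct lined by stratified squamous epithelium.

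The 250 bases before the transcription start of 3 genes are shown, from RefSeq on build GRCm38.p6: Cyp1b1 because it was the gene called in this comparison, Ltf because its mean difference was the largest among the genes whose arrays did not overlap, and Ahrr as a classical AhR target for comparison. Capitals mark the AhR core, searched as GCGTG and as its reverse complement CACGC, which covers both strands.
Cyp1b1 (chr17:79715062-79715311, minus strand): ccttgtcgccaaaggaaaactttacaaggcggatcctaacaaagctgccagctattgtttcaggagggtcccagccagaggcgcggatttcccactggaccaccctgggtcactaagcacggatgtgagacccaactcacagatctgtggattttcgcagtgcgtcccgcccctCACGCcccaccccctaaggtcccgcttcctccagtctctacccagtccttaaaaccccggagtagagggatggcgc
Ltf (chr9:111019042-111019291, plus strand): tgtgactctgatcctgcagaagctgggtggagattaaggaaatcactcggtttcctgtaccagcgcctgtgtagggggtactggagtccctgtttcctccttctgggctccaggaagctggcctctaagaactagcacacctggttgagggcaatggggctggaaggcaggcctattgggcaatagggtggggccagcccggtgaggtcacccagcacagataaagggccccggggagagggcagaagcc
Ahrr (chr13:74292332-74292581, minus strand): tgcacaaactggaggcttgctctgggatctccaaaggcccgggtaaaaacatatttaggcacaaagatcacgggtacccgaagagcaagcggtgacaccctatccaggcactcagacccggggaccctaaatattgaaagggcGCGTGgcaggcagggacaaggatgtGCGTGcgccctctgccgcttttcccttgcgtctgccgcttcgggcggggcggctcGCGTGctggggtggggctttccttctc
The Cyp1b1 window held 1 core, starting 76 bases before the transcription start, the Ahrr window held 3, at 107, 82 and 27 bases, and the Ltf window held 0. Such a core was present in 28.2% of all 32851 promoter windows of the table. A match describes the letters only and is not evidence of binding.

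The arrays carried the markers of the labelled tissue. Awat2, a wax synthase of sebocytes, lay between 10.4 and 11.29 log2 intensity in KO glands on BaP and at 11.13 and 10.91 in KO glands at week 0, and Plin2, a lipid droplet protein, lay between 10.4 and 11.49 on BaP and at 10.64 and 11.23 at week 0. Other sebocyte markers were dimmer. Elovl3 lay between 5.36 and 6.74 on BaP and at 5.45 and 5.74 at week 0. Scd3 lay between 6.35 and 6.78 on BaP and at 5.68 and 6.27 at week 0. Keratinocyte markers Krt14 and Trp63 were between 8.74 and 9.97 in all 9 arrays. Of the keratins of differentiating epidermis, Krt1 was at 4.45 or below and Krt10 at 6.72 to 7.14 in all 9 arrays. The seminal vesicle genes Svs2, Svs4 and Svs5 were at 4.02 or below, and the median of all genes on these arrays was 5.27 to 5.37. KO week 0 replicate 1 stood apart from the other arrays, most of which were on BaP. Its median correlation with them across genes was 0.950, where the other 8 arrays had 0.968 to 0.987. It was the lowest or the highest of the 9 arrays in 46.9% of genes, KO week 0 replicate 2 in 11% and the BaP arrays in 9.25% to 34.7%. Which of the 2 week 0 arrays is nearer to the usual week 0 level cannot be told from them. KO week 4 replicate 2 had the highest skeletal muscle signal. The mean of the 20 muscle genes was 5.87 in that array and 4.47 to 4.98 in the other 8, their summed linear intensity was 1608 there and 505 to 717 in the other 8, and Tnnt3, fast muscle troponin T, was at 8.58 there and 5.19 to 5.81 in the others. Every difference below rests on 2 arrays at week 0. Fewer cells of a type and less RNA per cell cannot be told apart in whole glands.

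Cyp1a1, the deleted gene, read low in every array. In KO glands its intensity was 3.83 and 3.67 at week 0, 3.86 and 3.76 at week 4, 4.16 and 4.24 at week 8, 4.14 at week 12 and 3.84 and 4.71 at week 16. In WT glands it was 4.26 to 4.69 on BaP and 4.35 and 4.74 at week 0. Of these 9 KO arrays, all but KO week 16 replicate 2, at 4.71, were below the lowest WT value, and the array left out, KO week 12 replicate 2, was above it at 4.80. All of these values lay under the median of all genes, and the position of the probe set relative to the deletion is not known here, so the reading is no check of the genotype.

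Cyp1b1, an AhR-regulated P450 that oxidises BaP, rose on BaP and was the only gene of 18784 called in the comparison, which is 0.00532% of the genes tested. A gene was called at a Benjamini-Hochberg adjusted p under 0.05 over all genes in limma. Cyp1b1 was at 6.66 and 6.69 log2 intensity at week 0, 8.60 and 8.44 at week 4, 8.37 and 8.69 at week 8, 8.75 at week 12 and 8.82 and 8.39 at week 16. The 7 BaP arrays lay close together at every week, and each was well above both week 0 arrays. KO glands on BaP averaged 8.58 ± 0.18 (SD, n = 7) and KO glands at week 0 6.67 ± 0.02 (SD, n = 2), a difference of 1.90 ± 0.17 log2 (SE) or 3.74-fold (limma, adjusted p = 0.00075, higher in 7 of 7 arrays). With KO week 12 replicate 2 included, in which Cyp1b1 was at 7.71, the difference was 1.80 and was no longer called (adjusted p = 0.321). Without KO week 0 replicate 1 it was 1.89 (adjusted p = 0.0443).

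**Figure D1:**
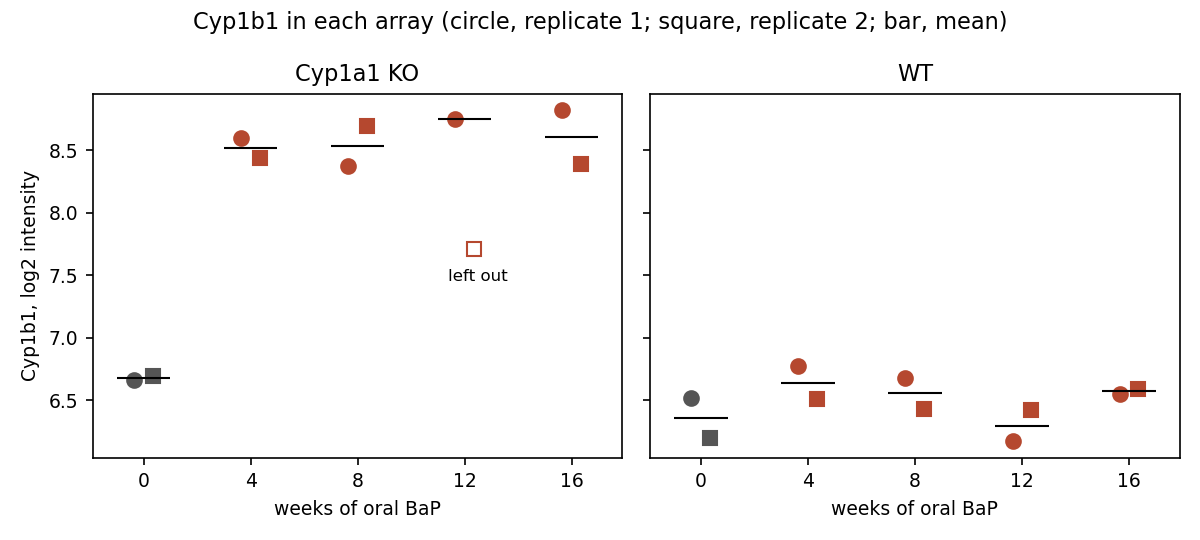
Log2 intensity of Cyp1b1 (vertical axis) against weeks of oral BaP (horizontal axis) in Cyp1a1 KO glands (left) and WT glands (right), 1 point per array and a bar at each mean; the open square is the KO array left out. The KO arrays used lie at 8.37 to 8.82 on BaP and at 6.66 and 6.69 at week 0, whereas the WT arrays lie at 6.17 to 6.77 on BaP and at 6.52 and 6.20 at week 0.

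Cyp1b1 was already high at week 4. Against week 0 it was higher by 1.84 ± 0.22 at week 4, 1.86 ± 0.22 at week 8, 2.07 ± 0.27 at week 12 and 1.93 ± 0.22 at week 16, each in a fit with a mean for every week. Weeks 4 and 16 passed the threshold (limma, adjusted p = 0.0371 and 0.0397), and weeks 8 and 12 did not (adjusted p = 0.12 and 0.271). The week 8 difference was no smaller than that of week 4 and had the same SE. The adjustment also depends on the p-values of all other genes in that week. Differences between the BaP weeks were not tested. The week 4 call was lost with quantile normalization (adjusted p = 0.071) and without KO week 0 replicate 1 (adjusted p = 0.134).

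The rise of Cyp1b1 was larger than the change in WT glands. In WT it was 6.52 and 6.20 at week 0, 6.77 and 6.51 at week 4, 6.68 and 6.43 at week 8, 6.17 and 6.42 at week 12 and 6.55 and 6.59 at week 16, so WT arrays on BaP and at week 0 overlapped. The WT change was 0.15 ± 0.15 and the KO change exceeded it by 1.75 ± 0.22 log2 (limma interaction over 19 arrays, adjusted p = 0.00157). Cyp1b1 was the only gene called in this test, 0.00532% of genes, and 2105 genes (11.2%) had an unadjusted p under 0.05. The call was lost without WT week 0 replicate 1 (1.59, adjusted p = 0.0842) and with KO week 12 replicate 2 included (1.64, adjusted p = 0.478). Without KO week 0 replicate 2 the count of genes called was 802. In the WT part of this fit 0 genes were called by limma.

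The rise was not shown to be larger or smaller than in glands labelled DKO. In these, Cyp1b1 was at 9.48 to 10.57 on BaP and at 8.74 and 7.48 at week 0, a change of 2.13 ± 0.31, and the KO change minus the DKO change was -0.23 ± 0.44 (limma interaction, adjusted p = 0.904). Every array labelled DKO on BaP was thus above every KO array, although Cyp1b1 is one of the genes deleted in DKO mice. The position of this probe set relative to that deletion is not known here either, so the signal is no check of the genotype.

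The other AhR targets lay mostly above their week 0 mean, but none passed the test. Of 17 genes on the list, 14 were measured; 1 was called, 11 had a positive difference, and the median difference was 0.43 log2, where the median of all genes was -0.045 and 43.7% of genes were positive. In 2 of the 14, Cyp1b1 and Slc7a5, every BaP array lay above both week 0 arrays, as in 2.57% of all genes, and in 1, Cyp1a2, every BaP array lay below, as in 3.53%. The mean of the list was 5.62 to 5.87 in KO arrays on BaP and 5.26 and 5.46 in KO arrays at week 0. The counts, the median and this mean include Cyp1b1, and also Cyp1a1, the deleted gene. The mean without Cyp1b1 was not computed, so its gap is in part that of the called gene.

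Slc7a5, a transporter of large neutral amino acids, was at 6.00 and 6.45 at week 0, 7.23 and 7.03 at week 4, 6.51 and 6.73 at week 8, 6.70 at week 12 and 6.79 and 6.87 at week 16 (difference 0.61 ± 0.20, limma adjusted p = 0.491). Scin, an actin-severing protein, differed by 0.85 ± 0.27 (adjusted p = 0.491) and overlapped, because week 0 replicate 2, at 6.04, lay above both week 16 arrays, at 5.86 and 5.98. Aldh3a1, an aldehyde dehydrogenase, was at 5.84 and 5.70 at week 0, 6.44 to 6.94 at weeks 4 to 12 and 6.06 and 5.76 at week 16. Nqo1, a quinone reductase, was at 5.07 and 5.24 at week 0, 5.73 to 6.06 at weeks 4 to 12 and 5.01 and 4.75 at week 16. For both enzymes the week 16 arrays were therefore the lowest on BaP, and those of Nqo1 lay below the week 0 arrays. The week 16 arrays also had the narrowest range of values on BaP (SD of all log2 values 1.80 and 1.76). Its part in these values was not tested.

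Of the feedback genes of the receptor, Tiparp and Ahrr were not called. Tiparp was 7.10 to 7.82 on BaP (median 7.46) and 7.50 and 7.42 at week 0, a difference of -0.03 ± 0.19 (limma adjusted p = 0.97). Ahrr, whose promoter window shown above holds 3 cores, was 3.39 to 4.21 on BaP (median 3.79) and 3.87 and 3.52 at week 0 (0.09 ± 0.21, adjusted p = 0.885), a level under the median of all genes. Groups overlapped in both genes. Of the 12 AhR targets found in the promoter table, 7 held a core before at least 1 of their starts (58.3%), where 30.9% of all genes did, and both Cyp1b1 and Ahrr were among the 7. Of the 22 genes found there that were higher on BaP by 1 log2 or more without overlap, 5 held a core (22.7%). Ahr itself, the receptor gene, differed by 0.42 ± 0.24 (adjusted p = 0.543), with 6.80 to 7.79 on BaP and 6.62 and 7.04 at week 0. The remaining members were Cyp2s1 (0.55), Nfe2l2 (0.63), Gsta2 (0.43), Cyp1a1 (0.35), Serpinb2 (0.22) and Ptgs2 (-0.18), none of them called.

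**Figure D2:**
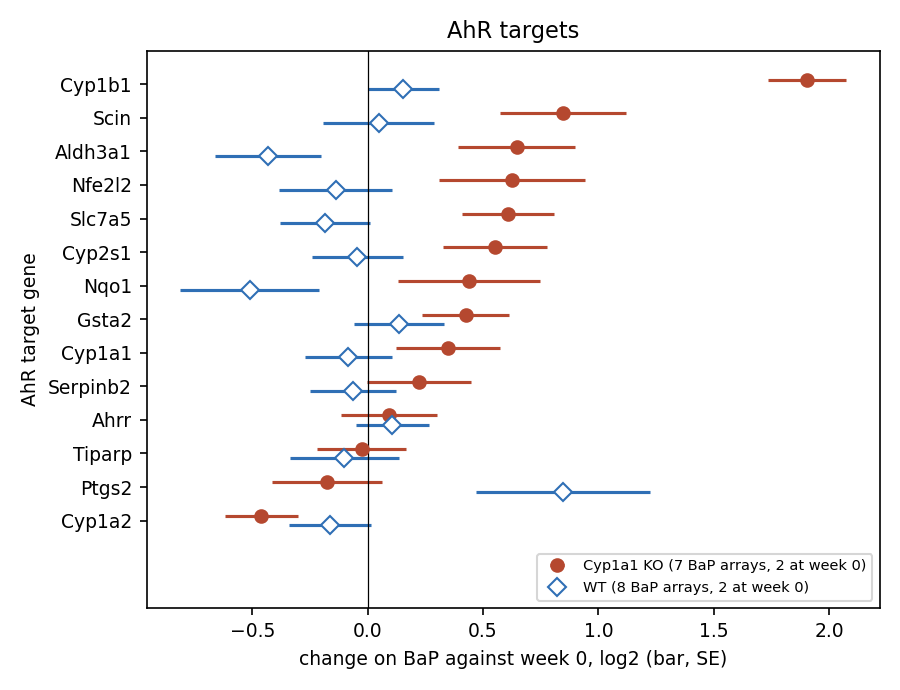
Change on BaP against week 0 in log2 units (horizontal axis, bars are standard errors) of the 14 measured AhR targets, in Cyp1a1 KO glands (filled circles) and WT glands (open diamonds). Cyp1b1 stands at 1.90 in KO and 0.15 in WT, and the other KO values run from -0.46 for Cyp1a2 to 0.85 for Scin.

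Downstream of the P450 enzymes, genes of the NRF2 and glutathione list lay slightly higher, without a call. Of 20 genes of the NRF2 and glutathione list, 17 had a positive difference (median 0.25) and 2, Gstm1 and Gstm3 (10% of the list), did not overlap and were higher, as in 2.57% of all genes. Gstm1, a mu-class glutathione transferase, was 8.02 to 8.76 on BaP (median 8.55) and 7.18 and 7.89 at week 0 (0.97 ± 0.22, limma adjusted p = 0.471). The wider list of phase 2 and transport genes had 17 of 29 positive (median 0.13, the middle 50% from -0.28 to 0.38), with Adh7 and Pon1 separated and higher, and P450 genes outside the Cyp1 family had 12 of 24 positive (median -0.01) with none separated. Adh7, an alcohol dehydrogenase of stratified epithelium that acts on retinol, was 8.92 to 9.61 (median 9.40) and 8.01 and 8.57 (1.06 ± 0.20, adjusted p = 0.467). Ephx1, microsomal epoxide hydrolase, a step toward the BaP diol epoxide, differed by 1.17 ± 0.50 (adjusted p = 0.5), with 8.51 in KO week 4 replicate 2 and 6.59 and 6.35 at week 16, against 5.64 and 7.12 at week 0. KO week 0 replicate 1 was the lowest of the 9 arrays in Gstm1, Adh7 and Ephx1. The NRF2 list mean was 6.45 to 6.92 on BaP and 6.35 and 6.62 at week 0, so the groups overlapped.

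Across all genes, 1866 (9.93%) had an unadjusted p under 0.05, 793 higher (4.22%) and 1073 lower (5.71%) on BaP. In 482 genes (2.57%) every BaP array lay above both week 0 arrays and in 664 (3.53%) below, 6.1% of genes together. With a mean difference of 1 log2 or more as well, these counts were 28 (0.149%) and 12 (0.0639%). The count of called genes depended on the week 0 arrays: it was 1 without KO week 0 replicate 1 and 995 without replicate 2, when the array that stands apart was the only week 0 array. The counts of separated genes of 1 log2 or more were then 570 higher and 611 lower.

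**Figure D3:**
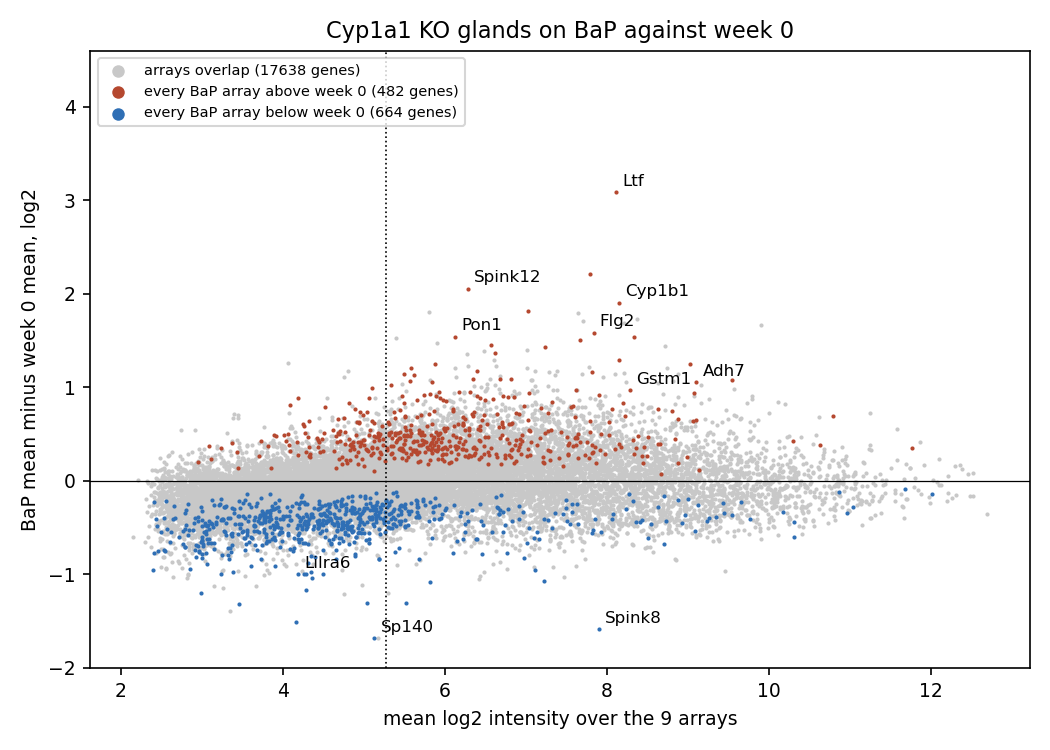
Difference between the mean of 7 BaP arrays and the mean of 2 week 0 arrays in Cyp1a1 KO glands (vertical axis, log2) against mean log2 intensity over the 9 arrays (horizontal axis), 1 point per gene; the dotted line is the lowest array median. Genes with every BaP array below week 0 lie mostly left of the line (492 of 664), whereas 120 of the 482 genes with every BaP array above week 0 do.

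The lower side was made up largely of dim probe sets. Of the 664 genes, 492 had a mean under the median of every array, against 120 of the 482 on the higher side. Among all 9201 genes under that level, 70.7% had a negative difference (median -0.13), and among the 9583 above it 42.5% (median 0.05). The 1068 olfactory receptor genes measured, which are dim in tissues other than nasal epithelium, showed this in bulk: 865 were negative (median -0.19). Array background was not measured here, and its part in these differences was not tested. The SD of all log2 values was 1.78 and 1.86 in the week 0 arrays. It was 1.89 to 1.97 at weeks 4 to 12, and 1.80 and 1.76 at week 16. The part of this range of values in the differences was not tested either.

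Ltf, lactotransferrin, an iron-binding protein of secretory epithelia and neutrophil granules, had the largest difference of the separated genes. It was at 5.10 and 6.32 at week 0, 9.61 and 10.59 at week 4, 8.57 and 8.38 at week 8, 8.80 at week 12 and 7.99 and 7.64 at week 16. The lowest BaP array was thus more than 1 log2 above the higher week 0 array, and the week 4 arrays were the highest. The difference of 3.09 ± 0.59 was not called in the comparison of 7 with 2 arrays (limma adjusted p = 0.467), where the spread among weeks counts as error; it was called when BaP was the mean of the week means (adjusted p = 0.0209). Of the neutrophil list 8 of 24 genes were positive (median -0.10) and none was called. That list was dim, with means of 4.455 to 5.077 on BaP, and 70.7% of all genes under the array medians were negative. In WT glands Ltf was 4.58 to 9.59 on BaP and 8.75 and 4.78 at week 0, which spans the whole KO range except its highest values, and the KO minus WT difference was not called (2.07, adjusted p = 0.597).

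The separated genes Scel, Flg2 and Slpi were not called. Scel, sciellin, a precursor of the cornified envelope, was 8.82 to 10.04 on BaP (median 9.18) and 7.59 and 8.52 at week 0 (1.25 ± 0.29, limma adjusted p = 0.471). Flg2, filaggrin 2, was 7.38 to 8.99 (median 8.10) and 5.86 and 7.35 (1.58 ± 0.40, adjusted p = 0.491), and the lowest BaP array exceeded week 0 replicate 2 by only a few hundredths. Slpi, a secreted inhibitor of leukocyte elastase named here after its values were seen, was 9.15 to 10.26 (median 9.87) and 8.49 and 8.92 (1.08 ± 0.27, adjusted p = 0.491).

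The remaining higher genes that the naming rule took were Inmt, a methyltransferase of small amines (0.95), Ppp1r14b, an inhibitor of protein phosphatase 1 (0.84), Phactr2, a phosphatase and actin regulator (0.75), Sult5a1, a sulfotransferase (0.99), and Slit3, a secreted guidance protein (1.37), each separated and each at limma adjusted p = 0.471. Ppp1r14b was at 8.12 to 8.51 on BaP (median 8.42) and 7.30 and 7.80 at week 0. Slit3 was 6.58 to 7.51 on BaP (median 6.84) and 4.80 and 6.31 at week 0, so that KO week 0 replicate 1 was again the far array. Genes of the heat map outside the rule, named after their values were seen, included Spink12, another Kazal-type inhibitor (2.06), C7, a complement component (1.54), Skint3, a membrane protein of keratinocytes (1.5), and Alox12, a lipoxygenase of epidermis and platelets (1.14), all at adjusted p = 0.491. Spink12 was highest in KO week 4 replicate 2 and KO week 16 replicate 1, at 8.26 and 7.47, with 5.45 to 6.91 in the other BaP arrays and 4.57 and 4.81 at week 0.

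On the lower side, Spink8, a Kazal-type serine protease inhibitor, was the brightest separated gene with a difference of 1 log2 or more. It was at 9.59 and 8.69 at week 0, 8.09 and 7.10 at week 4, 8.05 and 7.61 at week 8, 7.68 at week 12 and 7.14 and 7.21 at week 16 (-1.59 ± 0.30, limma adjusted p = 0.467). Lilra6, a leukocyte immunoglobulin-like receptor, had the smallest p of the lower genes, with 3.79 to 4.23 on BaP (median 3.97) and 4.95 and 4.98 at week 0 (-0.99 ± 0.16, adjusted p = 0.235), all under the median of all genes. Rbp7, a retinol-binding protein, was 5.33 to 5.87 (median 5.53) and 7.13 and 6.20 (-1.08 ± 0.23, adjusted p = 0.471). Groups did not overlap in these 3 genes, and none passed the test. The other lower genes under the rule were Acsf2, an acyl-CoA synthetase (-0.84), Cadps, a factor of vesicle release (-0.84), Galnt13, a glycosyltransferase (-0.76), Prss35, a serine protease (-0.92), and the olfactory receptors Olfr1318, Olfr395 and Olfr1217 (-0.96, -0.89 and -0.75). All 7 of them averaged below 5.27 on BaP, and adjusted p was 0.467 or 0.471. Sp140, a nuclear body protein of leukocytes named after its values were seen, had the lowest difference of the 12, at -1.68 ± 0.44 (adjusted p = 0.491), with 3.35 to 5.54 on BaP (median 4.71) and 6.91 and 5.96 at week 0.

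**Figure D4:**
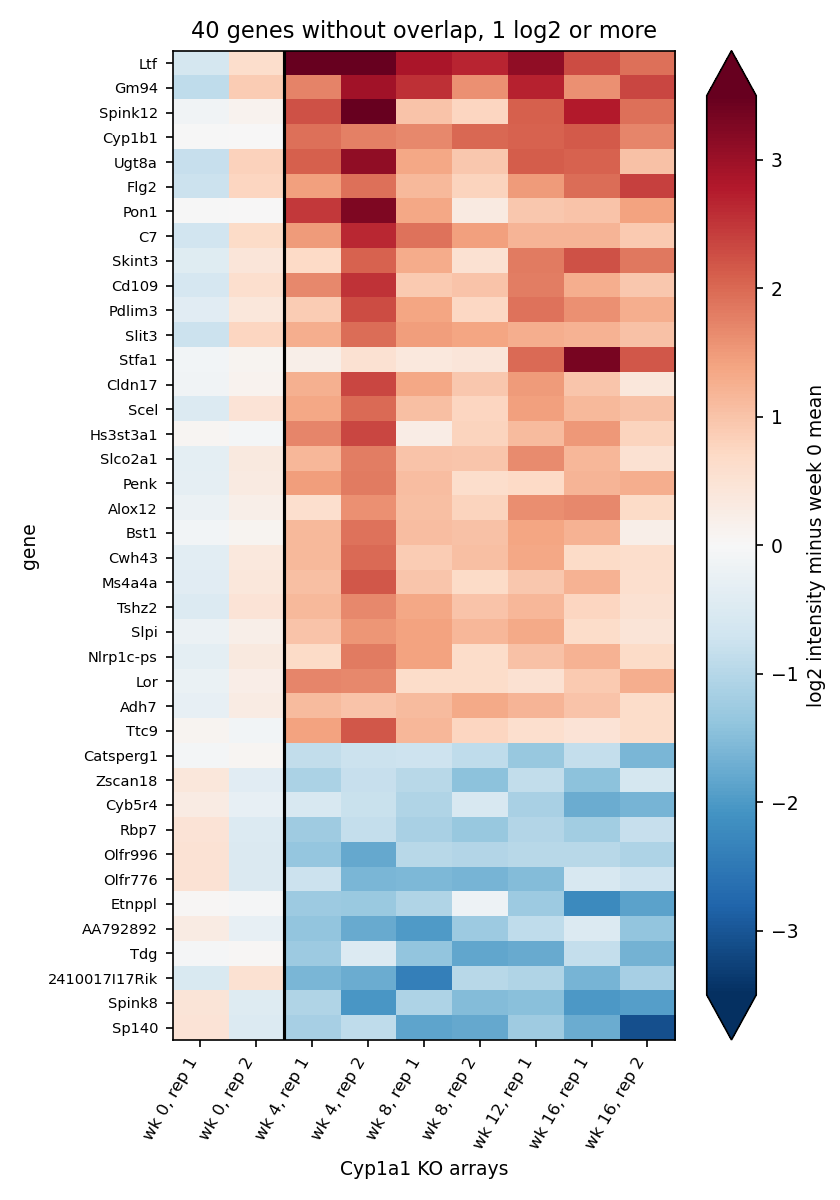
Log2 intensity relative to the mean of the 2 week 0 arrays (colour) of the 40 genes with no overlap between BaP and week 0 and a mean difference of 1 log2 or more, in the 9 Cyp1a1 KO arrays ordered by week. The 28 genes at the top were higher and the 12 at the bottom lower on BaP by construction; Ltf is darkest at week 4 and Stfa1 at week 16, and Cyp1b1 is nearly even across the BaP arrays.

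Single weeks differed in which genes were called. At week 4, 8 genes were called, all higher (0.0426% of genes tested), at weeks 8 and 12 no gene, and at week 16, 3 genes, all higher (0.016%); at an unadjusted p under 0.05 these limma tests gave 2837, 2191, 844 and 1586 genes. Week 12 was 1 array, assumed to vary like the other weeks. By limma's F test across weeks 0 genes were called, and 2151 had an unadjusted p under 0.05. At week 4 Ltf was higher by 4.39 ± 0.40 (limma adjusted p = 0.0112). Pon1, a secreted lactonase (2.89), Ereg, the EGF receptor ligand epiregulin (2.70), Cmah, an enzyme of sialic acid synthesis (2.67), Cpa6, a carboxypeptidase (1.78), Lor, the cornified envelope protein loricrin (1.70), and Krt7, a keratin of glandular and duct epithelium (1.60), joined Cyp1b1 at adjusted p = 0.0371. Cmah and Cpa6 were named after their values were seen. In KO week 4 replicate 2, the array with the highest muscle signal, the mean of the macrophage list was also highest, at 6.94 (5.70 to 6.22 in the other 8 arrays), as was that of the stroma list, at 7.24 (6.32 to 6.80). The part of other tissue in the week 4 values was not tested.

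The week 4 calls rested on the week 0 arrays as well. Without KO week 0 replicate 1 the count was 2, and Pon1, Ereg, Krt7, Cmah, Cpa6 and Lor were no longer called (adjusted p = 0.119 for Cmah and 0.134 for the others), while Ltf kept its call (3.78, adjusted p = 0.021). With quantile normalization 1 gene was called. Without KO week 0 replicate 2 the count was 4014. Some of the genes were nearer to their week 0 level later: against week 0, Cmah was at -0.26 and Cpa6 at 0.11 by week 16, and Ereg at 0.76. The part of the narrow range of the week 16 arrays in these values was not tested.

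At week 16 the called genes besides Cyp1b1 were Cyp2c37 and Stfa1. Cyp2c37, a P450 of the Cyp2c cluster, was at 4.53 and 4.99 at week 0, 5.30 and 4.98 at week 4, 6.26 and 5.95 at week 8, 6.34 at week 12 and 7.47 and 7.34 at week 16 (week 16 difference 2.65 ± 0.23, limma adjusted p = 0.00718). Its mean was higher at each later week. Stfa1, a stefin A inhibitor of cysteine proteases, was at 7.05 and 7.25 at week 0, 7.35 to 7.68 at weeks 4 and 8, 9.14 at week 12 and 10.47 and 9.32 at week 16 (week 16 difference 2.75 ± 0.32, adjusted p = 0.0397). In WT glands Cyp2c37 was 4.63 to 5.80 on BaP and 4.06 and 4.26 at week 0, also without overlap. Stfa1 in WT glands was 3.09 to 6.385 on BaP and 4.69 and 5.12 at week 0. In DKO glands, where most arrays had a narrow range of values, Stfa1 was 7.88 to 12.56 on BaP and 3.84 and 5.43 at week 0. Cyp2c37 overlapped there. Both genes belong to families of near-identical members, whose signals a probe set can mix. Without KO week 0 replicate 1 Stfa1 was no longer called (adjusted p = 0.0764) and the week 16 count was 8; without replicate 2 it was 250.

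The gene lists outside the AhR list held 0 called members in the comparison of all BaP weeks with week 0. The hypoxia and glycolysis list had the highest median, 0.47, with 16 of 19 measured genes positive. Of the 9583 brighter genes of the comparison, 42.5% were negative (median 0.05). In the list 1 gene, Vegfa, was separated and higher (5.26% of the list), where 2.57% of all genes were. Vegfa, the vascular growth factor, was 7.47 to 8.06 on BaP and 6.75 and 7.41 at week 0 (0.68 ± 0.23, limma adjusted p = 0.491). The list mean was 7.20 to 7.83 on BaP and 6.87 and 7.41 at week 0, so it overlapped, and KO week 0 replicate 1 was the lowest array. The same array was lowest, and the groups overlapped, for MHC class II presentation (11 of 14 positive, median 0.44; 5.56 to 6.57 on BaP and 5.52 and 5.91 at week 0) and macrophages (15 of 17 positive, median 0.38; 5.87 to 6.94 on BaP and 5.70 and 6.14 at week 0). Aldoa, an aldolase of glycolysis, differed by 0.63 ± 0.26, the class II chains H2-Aa and H2-Ab1 by 0.64 ± 0.37 and 0.63 ± 0.32, and the macrophage receptors Mrc1 and Csf1r by 0.76 ± 0.35 and 0.72 ± 0.39, none of them called. H2-Aa, H2-Ab1, Mrc1 and Csf1r were each highest in KO week 4 replicate 2, at 10.12, 9.45, 9.50 and 7.65. Lymphocyte genes had a median of -0.14 with 5 of 16 positive. Their list mean was dim, at 4.19 to 4.70 on BaP, and 70.7% of all genes under the array medians were negative (median -0.13). Of the 16, 2 were separated and lower, where 3.53% of all genes were. Gzma, a granule protease of cytotoxic lymphocytes, was separated at 3.67 to 4.43 on BaP and 5.44 and 4.76 at week 0 (-0.97 ± 0.23, limma adjusted p = 0.471).

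Epithelial lists lay closer to the other genes. Basal keratinocyte genes had a median of 0.21 (16 of 19 positive), with Krt17, a keratin of activated and duct epithelium, at 0.89 ± 0.34 and Krt5 at 0.55 ± 0.25. Cornified-layer genes had a median of 0.14 (14 of 23 positive). Flg2, Lor and Cdsn, corneodesmosin, were separated and higher, and the suprabasal keratins were not. These were 13% of the list, where 2.57% of all genes were separated and higher. The kallikrein and serpin list was the most spread, from -0.29 to 0.92 in the middle 50% of its 15 genes. Of these, 2 (13.3%) were separated and higher, where 2.57% of all genes were. The desquamation proteases Klk10, Klk11 and Klk13 were at 0.90 ± 0.40, 0.93 ± 0.35 and 0.99 ± 0.44, with overlap. Sebaceous lipid genes had a median of -0.03 (11 of 22 positive). Within that list Elovl6, a fatty acid elongase, and Scd3, a sebocyte desaturase, were separated and higher (0.62 and 0.56). They were 9.09% of the list, where 2.57% of all genes were separated and higher. Fabp5, a fatty acid binding protein of epidermis and sebocytes, was at -0.97 ± 0.34 with overlap, since KO week 0 replicate 1 alone, at 10.97, lay far above the other arrays.

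Lists of DNA damage and growth showed small medians: 0.05 for p53 targets (10 of 18 positive), 0.17 for bulky adduct repair (12 of 18) and 0.11 for the cell cycle (17 of 28). Members separated and higher made up 11.1%, 5.56% and 7.14% of these 3 lists, where 2.57% of all genes were. Polk, a polymerase that bypasses BaP adducts, was among the few separated members, at 6.65 to 7.0 on BaP and 6.23 and 6.42 at week 0 (0.49 ± 0.16, limma adjusted p = 0.491). Plk2, a p53-responsive kinase, was at 1.14 ± 0.40 with overlap, and Sesn2, a stress-responsive sestrin, was separated at 0.41 ± 0.17. Immediate early genes, whose RNA rises within minutes of a stimulus or of handling, had a median of 0.10 (11 of 16 positive), and 4 of the 16 (25%) were separated and higher, as in 2.57% of all genes: Ier3 (0.64 ± 0.20), Egr2 (0.66), Klf6 (0.33) and Zfp36 (0.28). Egr1 overlapped (0.96 ± 0.31), and no member was called. The mean of this list was 6.49 to 6.73 on BaP and 6.32 and 6.48 at week 0, so it did not overlap, and the part of handling in these values was not tested. Of the 36 list means, 5 were higher on BaP without overlap and 1, that of the bladder and urethral list, was lower. The 5 were those of AhR targets (Cyp1b1 included), p53 targets, immediate early genes, kallikreins and serpins, and phase 2 and transport genes. The lowest BaP and highest week 0 means were 6.77 and 6.75 for kallikreins and serpins and 6.03 and 6.01 for phase 2 and transport genes. For p53 targets they were 7.28 and 7.22. Summed intensities of the p53 and phase 2 lists overlapped. The bladder and urethral list was the lowest, with 1 of 12 positive (median -0.25), and its exception was Krt8, a keratin of simple epithelium, at 0.86, which was -0.11 without KO week 0 replicate 1 and 1.83 without replicate 2. The mean of this list also lay under the median of all genes, at 4.84 to 5.06 on BaP and 5.07 and 5.21 at week 0. For WT glands the medians were 0.14 for hypoxia and glycolysis, -0.07 for AhR targets and -0.10 for NRF2 and glutathione, each below the KO median, and 0.35 for immediate early genes, 0.16 for bladder and urethra and 0.18 for lymphocytes, each above it. These differences between list medians were not tested. Members of these lists gave 0 calls other than Cyp1b1 in the KO minus WT test.

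**Figure D5:**
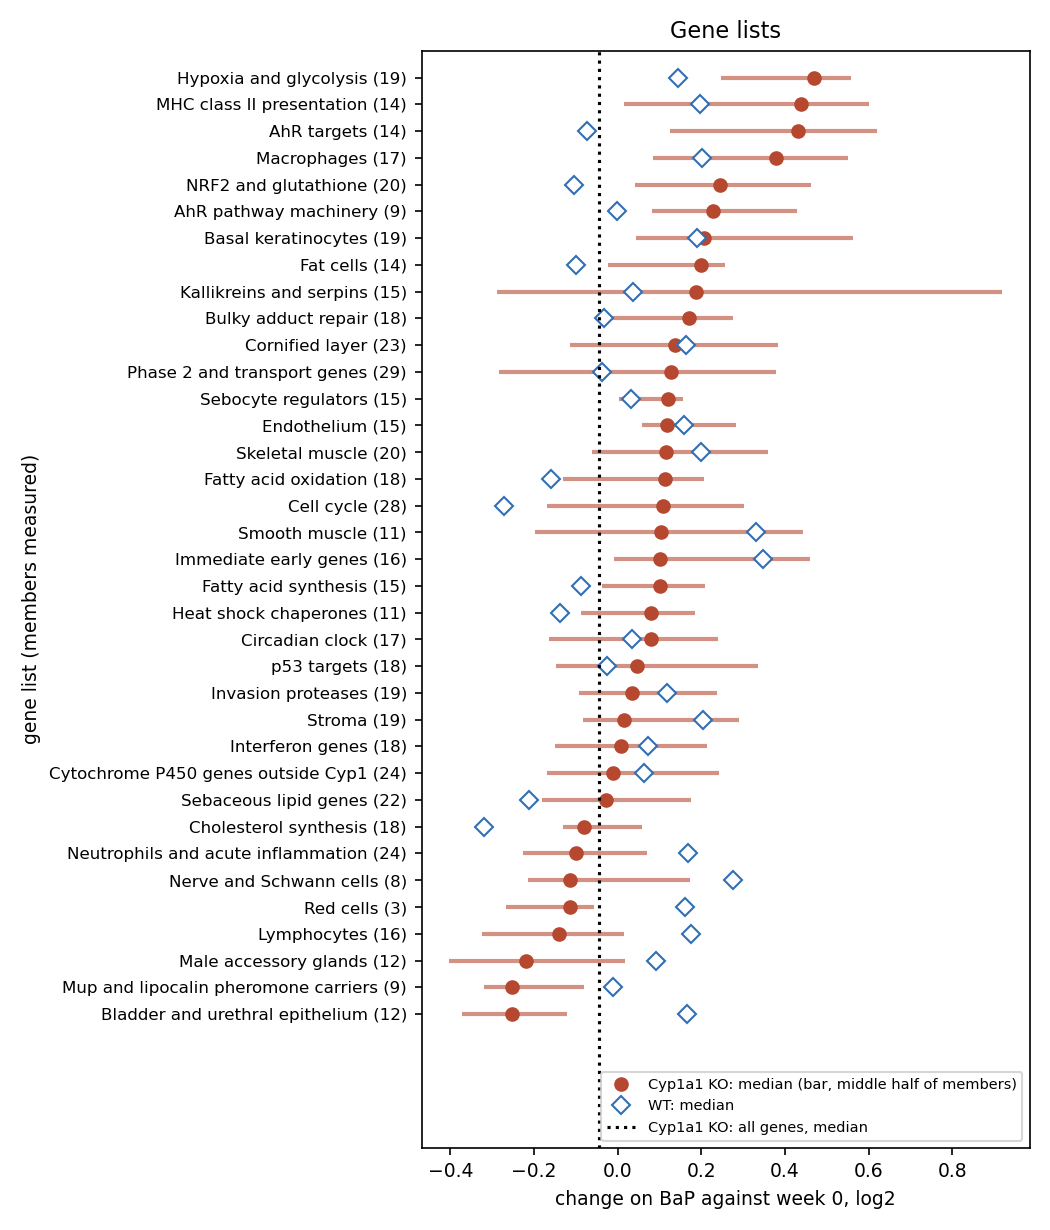
Median change on BaP against week 0 in log2 units (horizontal axis) of 36 gene lists in Cyp1a1 KO glands (filled circles, bars span the middle 50% of members) and in WT glands (open diamonds); the dotted line is the median of all genes in KO glands. KO medians run from -0.25 for the bladder and urethral list to 0.47 for hypoxia and glycolysis.

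Among genes with a lower change in KO than in WT, the naming rule took the 5 with the smallest p, and none was called. Their shared direction thus follows from the choice. On the other side, Ppp1r14b had a KO minus WT difference of 1.17 (limma adjusted p = 0.157), not called either. Tmem266, a membrane protein, was 3.65 to 4.04 in KO glands on BaP and 4.64 and 4.35 in KO glands at week 0, and in WT glands 3.78 to 4.15 on BaP and 3.57 and 3.56 at week 0 (KO minus WT -1.06, limma adjusted p = 0.101). Igf2, insulin-like growth factor 2, differed by -0.87 (adjusted p = 0.157), with 4.31 to 4.52 on BaP and 5.07 and 4.83 at week 0 in KO glands. Nlrp9a, Pabpn1l and Tescl had KO minus WT differences of -1.06, -0.93 and -1.15, also at adjusted p = 0.157. All KO values of these 5 genes were under the median of all genes. Compared with DKO, 0 genes were called by limma, with 1239 at an unadjusted p under 0.05; 8 of the 10 DKO arrays had the narrow range of values for which the KO week 12 array was left out, so genotype and range cannot be told apart there.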

How the data were processed

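RNA from preputial glands was amplified, labelled with biotin and hybridised to 1-colour arrays, per the labels' protocols. Per probe set, the authors deposited a log2 intensity made with RMA, per the submitters' processing notes (RMA corrects background, equalises distributions and summarises probes); its version and the annotation build were not given in the sources used here. Of 21212 probe sets, 18786 had 1 gene symbol in the platform annotation, 6 had several and 2420 had no entry there. Where a gene had more than 1 probe set, that of the highest 30-array mean was taken, leaving 18784 genes. No 2 arrays held identical values. The number of arrays limits the precision. The p-values set a difference against the spread between mice of a group. Where all BaP weeks share a mean, as in the main and KO minus WT fits, differences among weeks are part of that spread.

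A linear model of the 9 arrays, with a mean for BaP and for week 0, was fitted in limma 3.58.1 (R 4.3.3), two-sided, with Benjamini-Hochberg adjustment over all genes and calls at 0.05. Values after ± are model standard errors, or SDs where so marked. Further fits used a mean per week, and KO with WT or DKO arrays. Data of 18784 genes were simulated, with 50 genes changed by each of 1, 2, 3 and 4 log2. The main fit called 37, 50, 50 and 50 of them and made 6 false calls. With fewer changed genes, as in the real comparison, the threshold is stricter and recovery may be lower. The simulated noise was independent between arrays, so no simulated array stood apart across genes. In the real comparison Spink12, at 2.06 log2, was not called (limma adjusted p = 0.491). Replicate numbers of the titles did not pair arrays (correlations of deviations between weeks -0.193 to 0.302), so no block was used in the main fits.

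Named genes were Cyp1a1, Cyp1b1, the AhR targets, called genes without overlap, filled to 10 per direction by p, up to 4 genes of each list by p, and up to 3 per direction called in a single week. The rule gave 175 genes; the text names 70 of them and 9 others, picked after their values and their sensitivity were seen. The members, the 36 lists and this rule were chosen with earlier results of these data known. Promoters are RefSeq windows of GRCm38.p6. Alternatives changed normalization, centring, low-value filters, the variance model, array weights, probe set choice, weighting of weeks, the arrays in the fit and the replicate block, and left out arrays in turn; 1 low-value filter was chosen after seeing the data.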

Additional observations from a re-analysis of the deposited data

Results flagged for a closer look

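Across the 79 named genes and 36 list means, the 7 BaP arrays of Cyp1a1 KO glands were checked for a single array far from the others by Dixon's criterion, which chance alone meets in about 1 group in 20. In 4 genes and 5 list means an array stood out (6 genes among all 175 that the naming rule gave), and 7 of these 9 were KO week 4 replicate 2. In that array Tnnt3 was at 8.58 (5.19 to 5.81 in the other BaP arrays), the macrophage receptors Mrc1 and Csf1r at 9.50 and 7.65 (7.95 to 8.47 and 5.70 to 6.5), and the list means of skeletal muscle at 5.87 (4.47 to 4.98), macrophages at 6.94 (5.87 to 6.22), stroma at 7.24 (6.47 to 6.63) and invasion proteases at 6.45 (5.97 to 6.07). Serpinb2, a serpin that AhR ligands induce in some cells, was at 4.28 in KO week 16 replicate 1 (3.29 to 3.63 in the others). The mean of P450 genes outside the Cyp1 family was 5.42 in KO week 12 replicate 1 (5.23 to 5.32).

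The change of Cyp1b1 on BaP exceeded that in WT glands by 1.75 log2 in the test of the difference. KO week 12 replicate 2 was outside the comparison and had Cyp1b1 at 7.71, above both KO arrays at week 0.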

How the results depend on the processing

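Cyp1b1 kept its direction under every alternative run and its call under all but 1 of those on the BaP comparison. With KO week 12 replicate 2 included its difference was 1.80 (adjusted p = 0.321), 0 genes were called and 16 genes were separated and higher by 1 log2 or more; in the KO minus WT test it was then 1.64 (adjusted p = 0.478), again with 0 called. With BaP as the mean of week means 2 genes were called. Leaving out genes under every array median, a filter added after seeing the data, left 4 separated lower genes of the 12. At week 4 quantile normalization gave 1 call, and the F test gave 1 with a trended, robust variance. With the replicate number as a block, 5 genes were called at week 16, and at week 12 the genes at an unadjusted p under 0.05 were 1437 in place of 844; no other count of called genes moved by over 1.5 times. The numbers do not pair the arrays.

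Leaving out each array in turn gave 1 to 995 called genes, 24 to 570 separated higher and 13 to 611 separated lower genes, with the upper ends all without KO week 0 replicate 2; without KO week 16 replicate 2 the separated counts were 52 and 23. Without either week 0 array in turn, the counts were 2 to 4014 at week 4, 0 to 3487 at week 8, 0 to 1395 at week 12, 8 to 250 at week 16 and 117 to 2264 by the F test. Without a KO or WT week 0 array, the KO minus WT test called 0 to 802 genes, and Cyp1b1 was 1.59 to 1.91. Of the 79 genes followed in the text, 3 uncalled ones changed sign when an array was left out: Tiparp (-0.0895 to 0.0304), Ahrr (-0.0840 to 0.268) and Krt8 (-0.11 to 1.83). These 79 were picked after such results were seen: of all 175 genes under the naming rule, 18 changed sign under at least 1 alternative, with differences of up to 1.18 in size, all 18 without a week 0 array and 2 of them under other alternatives too. Of those uncalled, 43 were called without KO week 0 replicate 2. The causes of these changes were not tested. With either KO week 0 array left out, the KO fit holds no spread at week 0. Quantile normalization moved the median difference of all genes to -0.00612, and median centring to -0.0578. The 2 week 0 arrays and dim probe sets with no measured background limit what can be read from small differences.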
